A study of Mus musculus and blank sample with 191 samples.

Results

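The stroma of the mouse uterus holds fibroblast-like stromal cells, vessels with their muscle coat, leukocytes and, toward the outer wall, the smooth muscle of the myometrium. Here the 35 stroma regions of the first GeoMx plate, from 13 mice, were ordered by a smooth muscle score, the mean of log2(Q3 + 1) for Acta2 and Myh11. The Q3 value is a region's count divided by its own third-quartile factor. The 12 regions with the highest scores are called rich, the 12 with the lowest are called poor, and the 11 between them are called middle. These 35 were taken from 189 regions in the series. The regions were chosen from the levels of Acta2 and Myh11 themselves, so every difference between rich and poor regions is a description without a test.

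GeoMx profiling counts barcoded probes released by light from an outlined region of a fixed tissue section, and each region holds many cells. The mice were females of 2 genotypes. PV mice (PV/N in the labels) carry 1 Thra1 allele with the PV mutation, which encodes a dominant negative thyroid hormone receptor TRα1, and WT mice (N/N) carry none. The first-plate stroma came from 6 PV mice aged 2.4 to 6.3 months (21 regions) and 7 WT mice aged 4.0 to 9.0 months (14 regions), as cores of paraffin-embedded endometrium in tissue microarrays. Numbers after PV and WT name individual mice. A pathologist outlined the regions on stained sections in which antibodies to cytokeratin and to alpha smooth muscle actin marked the compartments. Alpha smooth muscle actin is the product of Acta2, so that gene had already helped to place the regions.

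Smooth muscle shortens when calcium, bound to calmodulin, activates the kinase of myosin light chain and lets myosin pull on actin filaments. Acta2 encodes the smooth muscle actin of vessels and many other muscle-like cells. Myh11 encodes the heavy chain of smooth muscle myosin and is the more restricted marker. The genes of the contractile apparatus share a binding motif of serum response factor, the CArG box, in which a run of A and T bases lies between a pair of C and a pair of G. Pericytes and myofibroblasts also contain Acta2. In a region of many cells, more cells of a type cannot be told apart from more RNA per cell.

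CArG boxes are shown for a marker, a listed gene and genes among the largest differences, because smooth muscle promoters are known for this element. In the 250 bases before each RefSeq gene start on GRCm38.p6, a complete box was found in 1.47% of 32851 promoters and a box with up to 1 interrupted inner base in 8.59%. The motif reads the same on both strands at its ends, so 1 search covers both. These percentages are over single promoters, whereas a gene below was counted if any of its promoters held a box. The counts of genes are therefore not on the same basis as the percentages. Of 29 genes (Acta2, Myh11 and the contractile genes kept in the normalised table), 24 had a promoter in the table, 4 of these had a complete box and 6 had a complete or interrupted one. Of the 12 genes named below as higher in rich regions, 8 had a promoter in the table. Among these, 0 had a complete box and 2 (Pcp4 and Gsn) an interrupted one. Of the 12 named as lower, 8 had a promoter, 0 a complete box and 1 (Stra6) an interrupted one. The printed genes were picked for having a box. Each line gives 30 bases on the gene's strand with the box in capitals.
Acta2, chr19:34255438-34255467, minus strand, box starting at -84: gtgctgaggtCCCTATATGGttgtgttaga
Acta2, chr19:34255388-34255417, minus strand, box starting at -34: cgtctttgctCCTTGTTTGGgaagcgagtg
Myl9, chr2:156775293-156775322, plus strand, box starting at -161: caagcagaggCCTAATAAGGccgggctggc
Myl9, chr2:156775355-156775384, plus strand, box starting at -99: cattcttctgCCTTGTAAGGccgggcggcc
Pcp4, chr16:96467489-96467518, plus strand, box starting at -107: ggtatagaatCCTTTTAGGGtggatgcttt
Gsn, chr2:35256187-35256216, plus strand, box starting at -162: gactcagtttCCTTCTATGGaccgcagaga
The first Myl9 box is complete, and each of the others holds 1 interrupted base. These are matches of letters and were not tested for binding.

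Acta2 spanned a wide range among the stroma regions. Its Q3 value was lowest at 113, had a median of 260 and reached 532 in rich regions, and was 12.0, 27.0 and 65.1 in poor regions. Myh11 was 37.2, 57.5 and 131 in rich regions against 8.02, 13.7 and 26.7 in poor regions. Neither gene overlapped between the classes, as the choice of regions made likely. The mean score of the rich regions was 2.57 above that of the poor ones. The score ran without a break across the class limits, with 6.19 in the last rich region (WT1) and 6.18 in the next (WT2), and 5.16 in the first poor region against 5.37 just above it (both PV1). Over the 35 regions the log2 values of Acta2 and Myh11 correlated at r = 0.886, a description over regions that share mice and scaling.

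**Figure D1:**
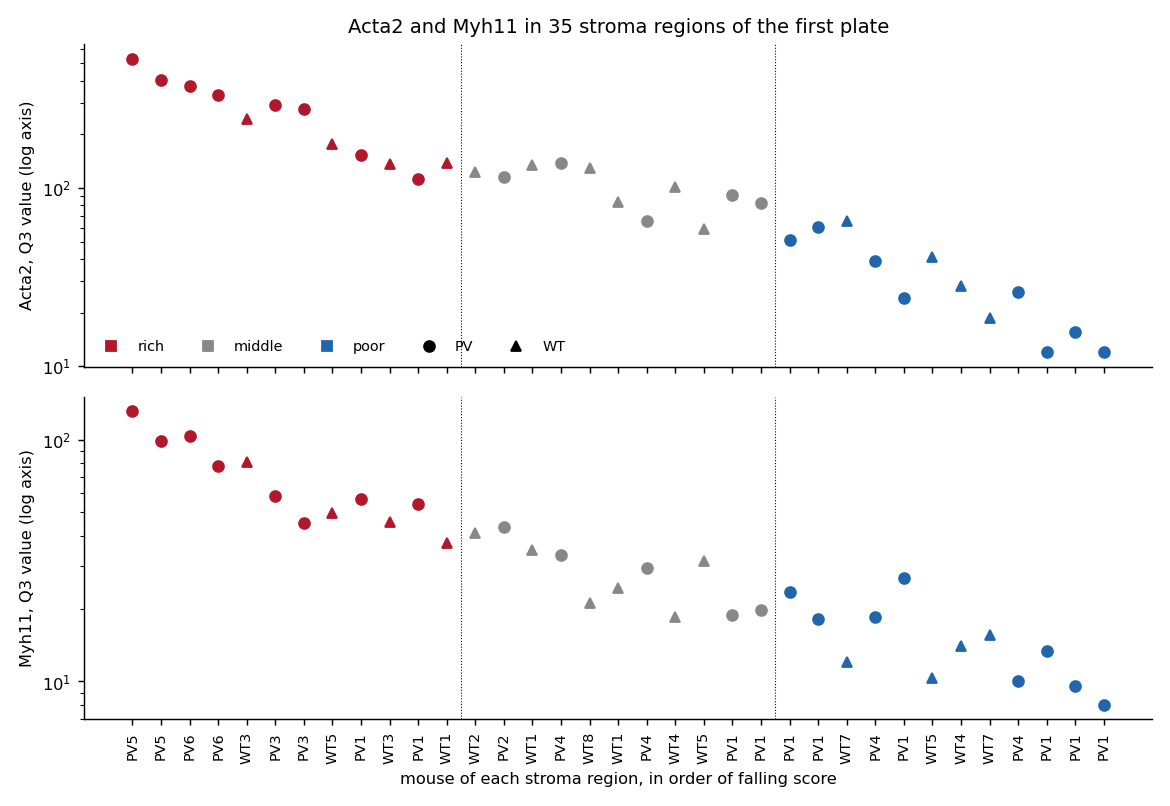
Q3 values (log axes) of Acta2 (top) and Myh11 (bottom) in each of the 35 first-plate stroma regions, ordered by falling score and named by mouse. Colours give the class, circles are PV and triangles WT, and dotted lines mark the class limits. Acta2 ranges from 532 to 12.0, and the score runs without a gap across the class limits.

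The classes were not spread evenly over the mice. Rich regions came from 7 mice, with 2 regions each from PV1, PV3, PV5, PV6 and WT3 and 1 each from WT1 and WT5. Poor regions came from 5 mice, with 6 from PV1, 2 from PV4, 2 from WT7 and 1 each from WT4 and WT5. The mice of the rich regions were aged 2.4 to 9.0 months and those of the poor regions 4.0 to 6.3 months. Among WT mice, those of the rich regions were aged 6.3 to 9.0 months and those of the poor regions 4.0 to 6.3 months. Class and age thus ran together within WT, and the part of age was not tested. Only PV1 and WT5 held both classes. Differences between mice made up an estimated 51.3% of the variance of the score, against a median of 33.2% over all genes. Each class had 8 PV and 4 WT regions, so genotype was balanced between them while mouse was not.

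The stroma label was borne out in all 35 regions. The mean log2 level of columnar epithelium markers minus that of fibroblast markers was -6.18 to -2.74 in them, against 0.01 to 3.33 in the 60 first-plate epithelium regions. The score of the epithelium regions had a median of 4.53 and reached 5.81, below every rich region. Of the 12 poor regions, 7 had a score below that median, as low as regions of another compartment. Total counts were 144351 to 1160209 per rich region and 255317 to 1042761 per poor region. The level of the negative-control probes had a median Q3 value of 4.74 in rich and 3.06 in poor regions, and the part of this difference in the results for dim genes was not tested.

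The label smooth muscle rich was borne out only for a small set of contractile genes. Of 28 listed genes of the contractile apparatus besides the 2 markers, 27 were in the normalised table. In these, 20 were higher and 7 lower in rich regions, with a median log2 difference of 0.30, beside a median of 0.11 over all 14881 genes. Only 5 exceeded a log2 difference of 1, which 0.766% of all genes did. These were Tagln, Actg2, Cnn1, Myl9 and Tpm2, and each also exceeded 1 within PV and within WT.

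Tagln, the actin-binding transgelin of smooth muscle, had Q3 values of 62.3, 166 and 334 (lowest, median and highest) in rich regions against 6.01, 26.7 and 154 in poor regions. Its log2 difference was 2.50. The classes overlapped in 2 poor regions, both of PV4, at 74.7 and 154. Actg2, the enteric smooth muscle actin, was 18.0, 41.4 and 158 in rich regions, with a median of 8.02 and a highest value of 20.1 in poor regions, a log2 difference of 2.10. Here 1 poor region passed the lowest rich ones. Actin genes are close paralogs, and probes were not checked for cross-hybridisation here.

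Cnn1, the calponin that restrains myosin on actin, was dim and divided between the classes by a narrow margin. It was 10.3, 17.2 and 30.4 in rich regions and 1.34, 5.08 and 9.95 in poor regions, a log2 difference of 1.67. In poor regions its median was close to the negative-probe level of 3.06. The highest poor value, 9.95 in WT7, came from a region with a negative-probe level of 7.79. With the negative-probe level subtracted, the difference of Cnn1 became 2.42. Myl9, the regulatory light chain of smooth muscle myosin, was 65.6, 132 and 198 against 17.4, 36.1 and 226, a log2 difference of 1.34. Tpm2, a tropomyosin lying along the actin filament, was 90.2, 126 and 207 against 34.7, 48.1 and 140, a log2 difference of 1.21. For both the classes overlapped, and the highest Myl9 value among poor regions, in PV4, passed that of every rich region.

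Other parts of the apparatus were as high in poor as in rich regions. Des, the intermediate filament of muscle, had medians of 96.6 in rich and 101 in poor regions and a log2 difference of -0.20. Mylk, the myosin light chain kinase, differed by -0.18 and Cald1, the caldesmon that binds actin and myosin, by -0.04. Flna, an actin cross-linker (0.04), and Myl6, the essential myosin light chain (0.09), also stayed close to 0. Des, Mylk and Cald1 were lower in rich regions within PV and higher within WT, where they differed by 0.09, 0.21 and 0.27. With TMM scaling in place of Q3, the median of all genes shifted from 0.11 to 0.01 and the list divided into 17 higher and 10 lower.

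**Figure D2:**
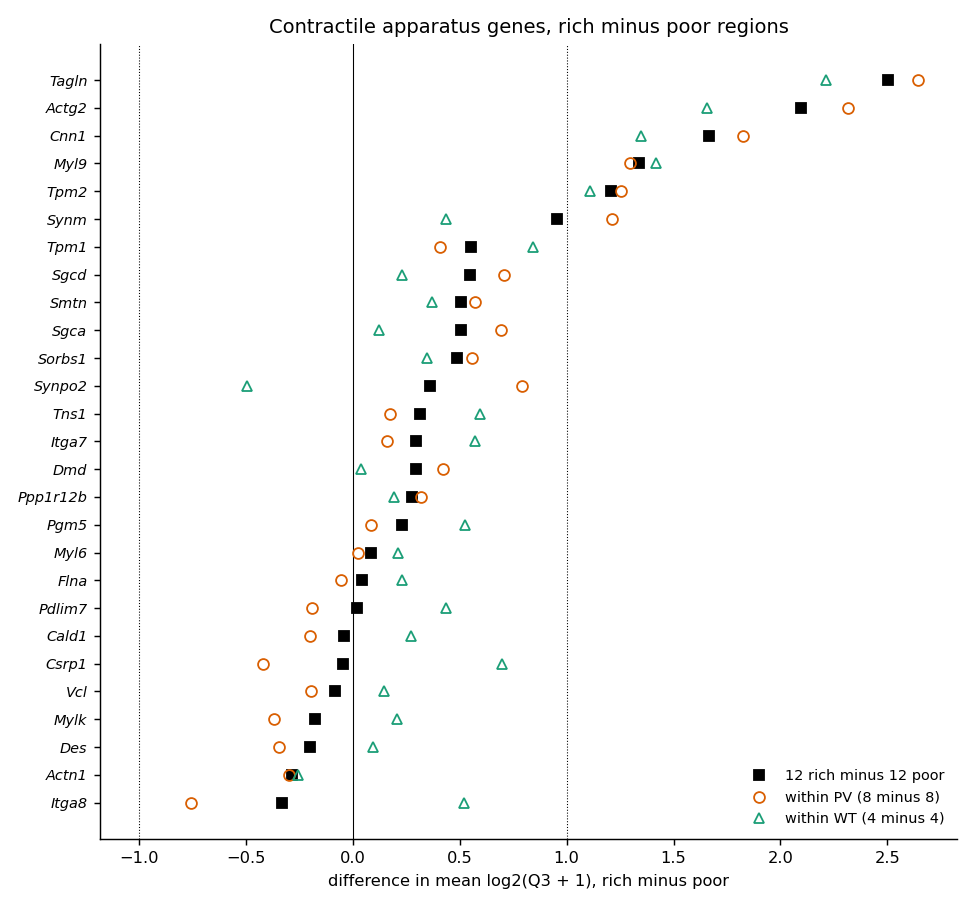
Difference in mean log2(Q3 + 1), rich minus poor, for the 27 contractile genes kept. Squares are all 12 against 12 regions, circles PV regions only (8 against 8), triangles WT regions only (4 against 4), and dotted lines mark 1 and -1. Tagln, Actg2, Cnn1, Myl9 and Tpm2 exceed 1 on all 3 measures, while Des, Mylk and Cald1 change side between the genotypes.

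Excitation and signalling genes showed few large differences. Of 10 kept calcium handling and channel genes, 6 were higher and 4 lower, with a median log2 difference of 0.29. Kcnma1, the pore of the large-conductance calcium-activated potassium channel, differed by 1.04, with 1.49 in PV and 0.14 in WT. Of 10 kept receptor and gap junction genes, 6 were higher and 4 lower, with a median of 0.15. Oxtr, the oxytocin receptor, differed by 1.17, but by 1.87 in PV and by -0.21 in WT, and 1 poor region reached a Q3 value of 90.2 against a highest rich value of 40.6. Gja1, the gap junction protein that couples uterine muscle cells, differed by -0.28. The 9 kept regulators of smooth muscle transcription had a median of 0.18, and Srf, serum response factor itself, differed by -0.11.

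Across all genes, 114 (0.766%) were over 1 and 35 (0.235%) under -1 in rich minus poor. With TMM scaling the counts were 45 and 44, so the share of higher genes among them fell from 76.5% to 50.6%. Only Acta2, Myh11, Cnn1 and Pcp4 were higher in every rich region than in every poor region (0.0269% of genes), and no gene was lower in every rich region (0%). Genes to name were the 12 with the largest difference in each direction that had the same sign within PV, within WT and in the mean over PV1 and WT5. For 23 of these 24, the mean of the middle regions lay between those of the rich and the poor ones. The classes are cuts of 1 score and the genes were chosen for large differences, so this was largely fixed by the choice.

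Besides Tagln, Actg2 and Cnn1, the 12 higher genes were Mettl7a1, Kcnh5, Gsn, Pcp4, Iglc1, Inmt, Hlf, Sfrp4 and Adh1, with log2 differences of 1.59 to 1.82. Pcp4, a small modulator of calmodulin, was 16.7, 23.1 and 54.1 in rich regions and 2.67, 6.71 and 12.0 in poor regions. Gsn, the actin-severing gelsolin, was 162, 322 and 1015 against 41.4, 106 and 294. Sfrp4, a secreted frizzled-related protein of the WNT pathway, was 30.4, 66.3 and 168 against 5.34, 17.6 and 115, and its log2 difference of 1.59 became 1.01 without PV1. The genotypes did not share all of these equally. Hlf, a circadian PAR-domain transcription factor, differed by 2.47 in PV and 0.06 in WT. Iglc1, an immunoglobulin light chain constant gene with near-identical copies, reached 2303 in 1 rich region against a rich median of 32.4.

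The 8 genes that followed the score most closely over the 35 regions were Cnn1 (r = 0.83), Pcp4 (0.82), Actg2 (0.80), Gsn (0.79), Tpm2 (0.79), Tagln (0.78), Kcnh5 (0.78) and Tmem45a (0.76). These correlations describe regions that share mice. Kcnh5, an EAG-type potassium channel, was 6.76, 19.5 and 81.2 in rich regions and 1.20, 5.80 and 11.2 in poor regions. Tmem45a, a membrane protein, had a smaller log2 difference of 0.82.

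The 12 lower genes were led by Dio2, the deiodinase that turns thyroxine into the active hormone T3 inside cells. Its Q3 value was 9.02, 92.3 and 698 in rich regions and 287, 590 and 1276 in poor regions, a log2 difference of -2.34. Every poor region was above the rich median, while the highest rich regions overlapped the poor ones. Gzmb, the granzyme B of cytotoxic and uterine NK cells, was 4.51, 13.0 and 25.9 against 7.68, 40.8 and 199. Its difference was -2.35 in PV and -0.26 in WT. The PV value came from PV1, whose 6 poor regions were at 23.0 to 199, while the 2 poor regions of PV4, at 7.68 and 10.1, lay within the rich range. Without PV1 the difference over both genotypes was -0.44 in place of -1.66. Hand2, the progesterone-induced transcription factor of endometrial stroma, was 35.0, 61.3 and 168 against 59.3, 186 and 238, a log2 difference of -1.31.

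Several of the other lower genes depended on which mouse was included. Cxcl14, a chemokine, differed by -1.50, but the medians were 17.3 and 18.9. The 5 poor regions of PV4, WT4 and WT7 had Q3 values of 171 to 890, while the poor regions of PV1 and WT5 were no higher than rich ones. The difference was -3.41 without PV1 and -0.86 without PV4. Bmp7, a bone morphogenetic protein, differed by -1.10, and Snai1, a repressor active in mesenchymal cells, by -1.20. Stra6, the retinol-binding protein receptor, differed by -1.30. Tgm2, a transglutaminase, differed by -1.15, and Enpp2, the autotaxin that makes lysophosphatidic acid, by -1.12. Mab21l3, Thy1 and Plet1 completed the 12 with -1.41, -1.24 and -1.22. Without PV1 the differences of Plet1 and Enpp2 shrank to -0.41 and -0.70, and those of Thy1 and Bmp7 grew to -1.88 and -1.74. Enpp2 was also smaller without PV6, at -0.74.

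**Figure D3:**
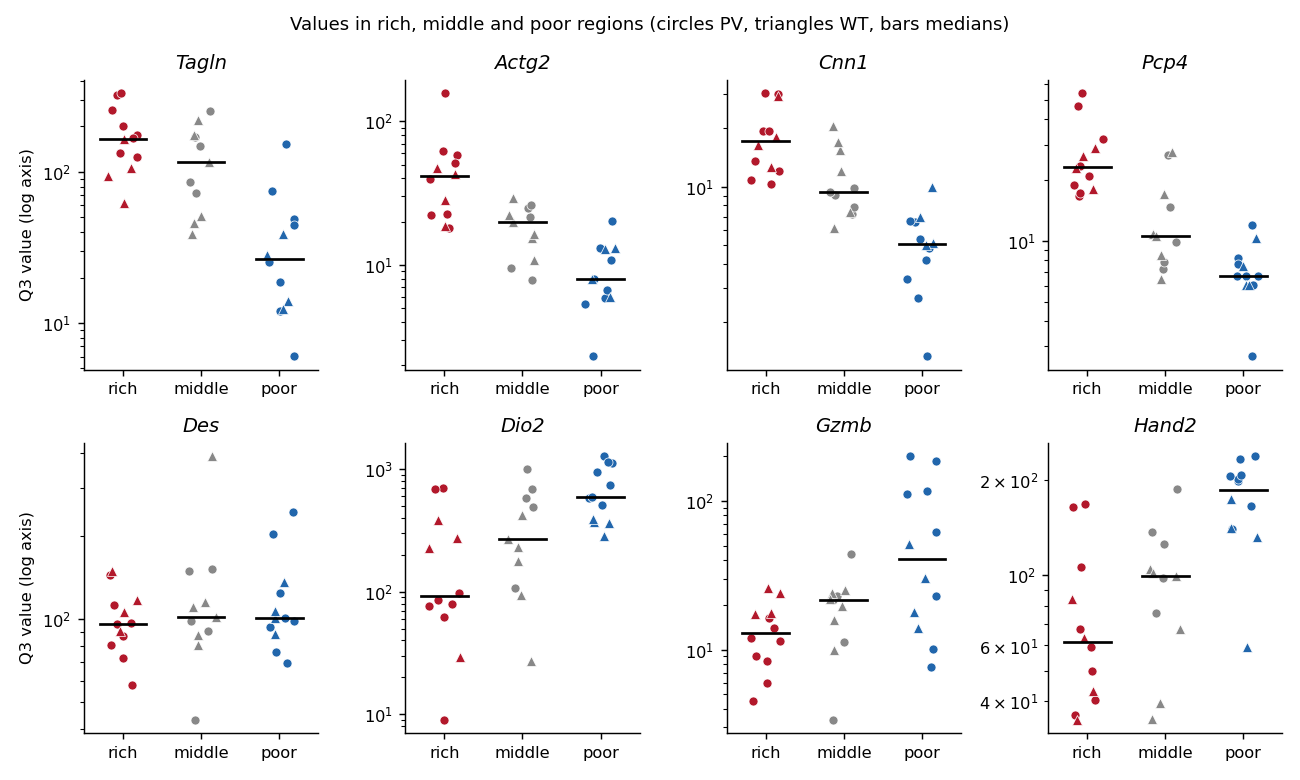
Q3 values (log axes) in the 12 rich, 11 middle and 12 poor regions for Tagln, Actg2, Cnn1, Pcp4, Des, Dio2, Gzmb and Hand2. Circles are PV, triangles WT, and bars are class medians. Cnn1 and Pcp4 do not overlap between rich and poor regions, and Des has medians of 96.6 and 101.

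The mouse PV1 gave the closest view within an animal, with 2 rich and 6 poor regions. In PV1 all 12 higher genes were higher in its rich regions and 11 of them by more than 1. Tagln differed there by 2.79, Actg2 by 1.71, Pcp4 by 1.34, Cnn1 by 1.33 and Tpm2 by 1.22. Of the 12 lower genes, 11 kept their sign in PV1, but Dio2 differed by only -0.39, Hand2 by -0.31 and Snai1 by -0.10, and Cxcl14 by 0.09. Gzmb differed there by -3.05. In WT5, with 1 region of each class, 9 of the higher and 8 of the lower genes kept their sign. Part of this is the rule itself, which required the mean over both mice to keep its sign. PV1 also gave 6 of the 12 poor and 2 of the 12 rich regions that ranked these genes, so its sizes were partly fixed by the choice. Over all genes the median difference within PV1 was 0.10.

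Over the 10 mice with at least 2 regions (32 regions), the slope on the score after subtracting each mouse's mean was positive for all 12 higher genes and negative for 11 of the 12 lower ones. The exception was Snai1. These regions and this score had chosen the genes, so the shared signs were largely fixed by the choice, and 8278 of all 14879 genes had a positive slope. Tagln rose by 1.12 on the log2 scale per unit of score within mice, Sfrp4 by 0.79, Actg2 by 0.69 and Cnn1 by 0.66. Dio2 fell by 0.41 and Gzmb by 0.96.

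Markers of other cells moved with the classes as follows. Columnar epithelium markers were lower in rich regions for 10 of 12 genes, with a median of -0.52. Within the mice that held both classes this median was smaller, at -0.18 in PV1 and -0.07 in WT5. The mean log2 level of the columnar markers was 3.13 to 5.06 in rich and 3.95 to 5.26 in poor regions. Endothelial markers were higher for 9 of 10 genes (median 0.44), with a mean level of 4.77 to 6.04 against 4.23 to 5.35. Vwf, the von Willebrand factor of vessel lining, differed by 0.92 and Cldn5, an endothelial tight junction protein, by 0.71. Pericyte and vessel-wall markers differed little, with a median of 0.16, 6 of 10 higher and a level of 4.29 to 5.09 against 4.20 to 5.06. Notch3, a receptor of mural cells, differed by 0.53, and Rgs5, a pericyte marker, by -0.40. Their part in the smooth muscle difference was not tested.

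Over all genes, 9457 of 14881 were higher in rich regions, against which the list counts are read. All 11 kept elastic fibre genes were higher in rich regions (median 0.60), 8 of them within both genotypes, as were 5989 of all 14881 genes. Their mean level was 5.43 to 6.64 in rich and 4.49 to 6.37 in poor regions. Eln, elastin, differed by 0.95, with 1.43 in PV and 0.01 in WT, and Fbln5, an elastic fibre assembly protein, by 0.72 with 0.64 and 0.87. Fibroblast markers had a median of 0.34, with 7 of 10 higher and a mean level of 7.82 to 9.31 against 7.86 to 9.17. Dcn, decorin, had medians of 1243 and 504, whereas Mmp2, a matrix metalloproteinase, had 185 and 323. Within WT the fibroblast list had a median of -0.07.

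Macrophage markers differed in sign between PV and WT regions, with 1 WT mouse standing high. All 9 kept macrophage markers were lower in rich regions within PV (median -0.44) and all 9 were higher within WT (median 1.04), and their median over both was -0.02. Within WT5, the WT mouse with both classes, the median was -0.27. The 2 rich regions of WT3 had mean list levels of 7.42 and 7.40, against 5.12 and 5.88 in the other rich WT regions and 4.72 to 6.10 in the poor ones. C1qa, a complement subunit of macrophages, differed by -0.58 in PV and 1.11 in WT. The difference between genotypes was not tested. T and NK cell markers had a median of -0.67 in PV and 0.16 in WT. B and plasma cell markers had a median of 0.32, but of -0.98 within PV1 and 0.35 within WT5. Igha, the IgA heavy chain, ranged from 6.01 to 10440 in rich and from 22.3 to 22748 in poor regions. The macrophage list had a mean level of 4.39 to 7.42 in rich and 4.72 to 6.87 in poor regions, the T and NK cell list 2.79 to 4.83 and 3.43 to 5.19, and the plasma cell list 3.69 to 6.83 and 3.41 to 7.23.

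Lists for tissue at the edge of the uterus were thin. Of 7 mesothelium markers 4 were kept, and 2 of these were under 2 times the negative-probe level. Nerve markers (3 of 9 kept), skeletal muscle markers (4 of 8) and adipocyte markers (4 of 7) had medians of 0.57, 0.28 and 0.75. Of these kept genes, 1 nerve, 2 skeletal muscle and 1 adipocyte marker were also under 2 times that level. The negative-probe median was itself higher in rich regions, at 4.74 against 3.06, and its part in these medians was not tested. Acta1, the skeletal muscle actin, was 4.51, 15.1 and 27.1 in rich and 2.67, 7.64 and 16.4 in poor regions. Gland markers (5 of 9 kept, 2 of them under 2 times the negative-probe level) had a median of 0.21 and proliferation genes (14 of 16) of 0.02.

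Endometrial regulators and thyroid hormone genes gave a mixed picture. Of 15 regulators of the endometrial stroma, 6 were higher and 9 lower, with a median of -0.24. Within WT the median was -0.67, and Pgr, the progesterone receptor, differed by 1.15 in PV and -1.62 in WT. Of 10 kept thyroid hormone genes, 7 were higher and 3 lower (median 0.15). Beside Dio2, the largest difference was that of Thra, the gene that carries the PV mutation, with Q3 values of 59.8, 88.4 and 216 in rich and 41.4, 62.8 and 133 in poor regions.

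Whether the markers and contractile genes differ between PV and WT stroma does not depend on the classes and could be tested over mice. The log2 level of Acta2, averaged over a mouse's regions, had a lowest, median and highest value of 5.48, 7.51 and 8.86 in 6 PV mice and 5.17, 6.87 and 7.51 in 7 WT mice. The genotypes overlapped over most of this range. On counts summed per mouse, Acta2 was higher in PV by 1.03 ± 0.44 (log2, SE) and Myh11 by 0.84 ± 0.39, and without PV5 by 0.64 and 0.50. The unadjusted p of edgeR's quasi-likelihood test was 0.029 and 0.043, and neither passed the adjustment over all genes. The score itself was 6.42 ± 1.21 in PV (SD, n = 6 mice) and 5.65 ± 0.75 in WT (n = 7).

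No gene was called between the genotypes in this stroma after adjustment (0% of 14881), and 523 (3.51%) had an unadjusted p under 0.05, 316 of them higher (2.12%) and 207 lower (1.39%) in PV. DESeq2 called Klf9 and Sult1d1 lower in PV, and limma on per-mouse log2 values called Klf9. Klf9, a zinc finger factor induced by thyroid hormone, was lower by 1.31 ± 0.28 on the log2 scale, with an adjusted p of 0.579 in edgeR. Without PV4, edgeR called it with an adjusted p of 0.0059. Of the contractile list, 1 gene (Pgm5, an aciculin of muscle attachment sites) passed the unadjusted threshold, higher in PV by 0.90 ± 0.36. Thra was higher in PV by 0.99 ± 0.29 with an unadjusted p of 0.0026, at mean log2 levels of 5.63 to 7.69 in PV and 5.13 to 6.30 in WT mice.

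Stroma regions of the second plate were not used to choose the classes and allowed a test of which genes follow the score. On that plate the compartment markers of a run of 57 wells matched the label of the next well, and only 21 of these 57 were on their own label's side, against 37 of 37 outside the run. The 14 stroma regions outside the run, from 6 mice, were kept. They were 4 regions of WT6, 4 of WT7, 3 of WT1 and 1 each of WT2, WT8 and PV1. Each of these mice also gave regions on the first plate (for WT6 epithelium and no stroma), so the plates are not independent samples of mice. The score in WT7 was 4.08 to 4.33 here and 4.17 and 4.88 on the first plate, and in WT1 5.42 to 6.54 and 5.54 to 6.19.

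With the mouse as a block, only WT6, WT7 and WT1 had several regions to inform a slope, and its p-values measure the spread between regions within these mice. In this fit edgeR's quasi-likelihood test called 11 of 14879 genes (0.0739%) with a slope on the score, 2 rising (0.0134%) and 9 falling (0.0605%). At an unadjusted p under 0.05 there were 606 rising (4.07%) and 681 falling (4.58%) genes, 8.65% in all. Pcp4 rose by 1.09 ± 0.17 on the log2 scale per unit of score (SE, adjusted p = 0.0072). In the 4 regions of WT6, from the highest score to the lowest, its Q3 value was 69.0, 20.0, 23.1 and 7.22, and in the 3 of WT1 it was 20.9, 18.0 and 11.0. Pcp4 thus rose with the score in regions the classes did not use, and it was 1 of the 4 genes without overlap between them.

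Lama4, a laminin chain of basement membranes around vessels and muscle cells, rose by 0.84 ± 0.14 (adjusted p = 0.0094). Its values in WT6 were 121, 28.1, 56.3 and 18.6. On the first plate Lama4 had differed by only 0.29, with medians of 50.7 and 40.3 that overlapped widely, and its slope within first-plate mice was -0.05. Among the falling genes, Wnt16, a WNT ligand, fell by 1.10 ± 0.14 and Prap1, a secreted proline-rich acidic protein of uterine epithelium, by 1.28 ± 0.17 (both adjusted p = 0.0011). Wnt16 was 9.41, 29.4, 14.4 and 94.8 in WT6 and 3.80, 10.8 and 22.0 in WT1. Prap1 was 4.71, 12.0, 10.1 and 77.3 in WT6 and 13.3, 7.22 and 7.84 in WT1, so it fell with the score in WT6 while in WT1 it was highest in the top-scoring region. The third, Ighv3, belongs to the immunoglobulin variable genes, whose near-identical copies make it uncertain, and fell by 1.08 ± 0.16 (adjusted p = 0.0038).

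The other falling genes were Enpp2, Sfrp2, Cacna1g, Spon2, Zbtb40 and Ntrk2, named because the count is small. Enpp2 fell by 0.96 ± 0.15 (adjusted p = 0.0081), with 7.84, 18.7, 15.9 and 63.9 in WT6 and 11.4, 28.9 and 22.0 in WT1. It was also among the 12 lower genes of the first plate. Sfrp2, a WNT pathway antagonist of stroma, fell by 0.70 ± 0.13 (adjusted p = 0.026). The first-plate differences of the 11 were not all on the same side. Ighv3 and Spon2 had been higher in rich regions by 1.04 and 0.45, and Wnt16 and Zbtb40 had been close to 0 (-0.17 and -0.03). The slopes within first-plate mice of Wnt16 (0.11), Sfrp2 (0.08), Zbtb40 (0.05), Spon2 (0.41) and Lama4 were opposite in sign to those of the second plate.

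**Figure D4:**
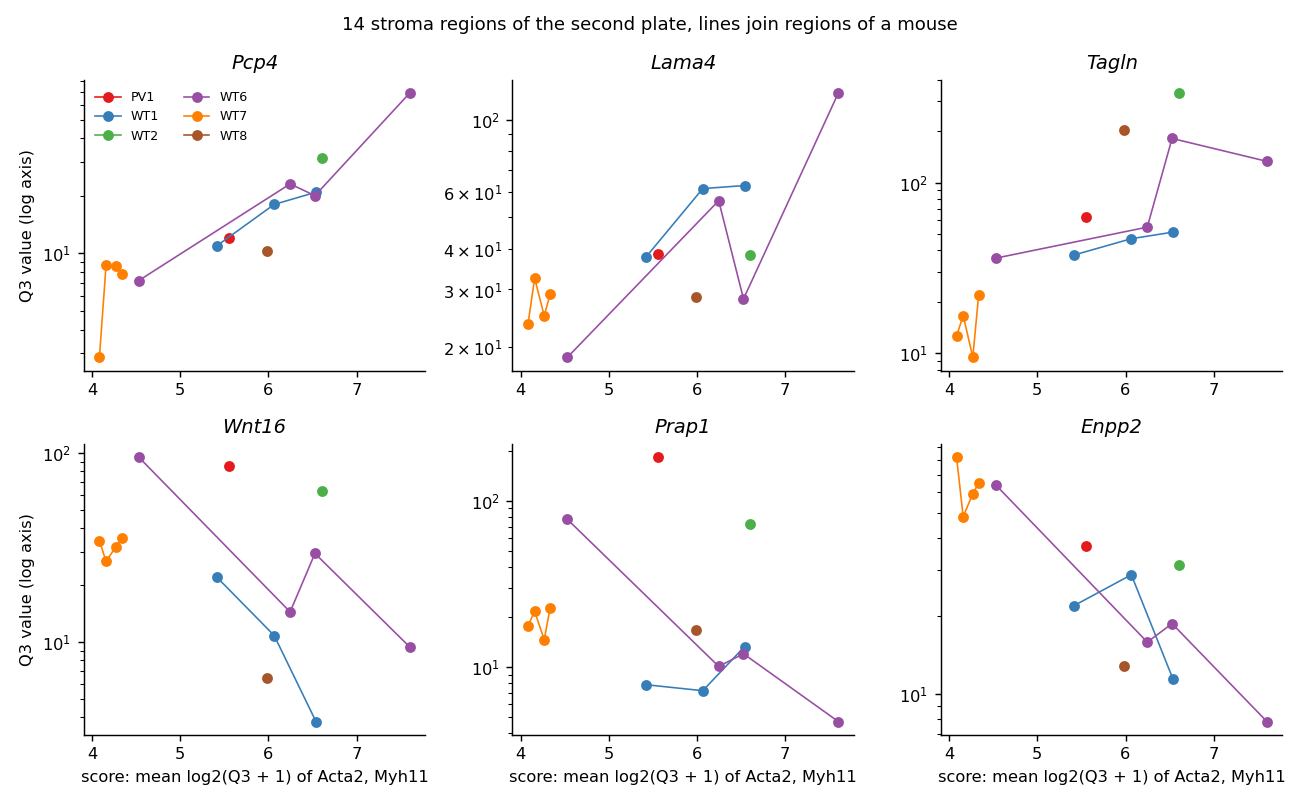
Q3 values (log axes) of 6 genes against the score in the 14 second-plate stroma regions outside the displaced run. Colours and lines mark regions of 1 mouse. Pcp4 rises with the score in WT6 and WT1, whereas Prap1 falls in WT6 and is highest in the top-scoring region in WT1.

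The calls rested largely on WT6, whose 4 regions spanned scores of 4.53 to 7.60. Without WT6, none of the 11 was called, 9 kept their direction, and Prap1 and Ighv3 turned to 0.61 and 0.58. The fit without WT6 called 2 rising and 12 falling genes, all of them outside the 11. The slope of Pcp4 was then 0.98 (adjusted p = 0.94). Over the alternatives run, the adjusted p of Pcp4 went from 1.35e-05 to 0.94, and both DESeq2 (0.20) and limma (0.090) left it uncalled. Without WT7 and without WT1, 4 and 5 of the 11 stayed called.

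Contractile genes followed the score on the second plate in part. Actg2 rose by 0.79 ± 0.20, Cnn1 by 0.81 ± 0.22 and Tagln by 0.65 ± 0.17, with unadjusted p values of 0.00051, 0.0013 and 0.00068 in edgeR, and none was called after adjustment. Myl9 had a slope of -0.09 ± 0.14 and Tpm2 of 0.16 ± 0.12. Of the 27 contractile genes, 3 rose and 2 fell (Mylk and Pgm5) at an unadjusted p under 0.05, and the median slope was 0.02, beside 0.00 over all genes.

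Other genes of the first-plate lists were mixed on the second plate. Of 112 genes over 1 besides the 2 markers, 71 had a positive and 41 a negative slope, and 17 rose and 4 fell at an unadjusted p under 0.05. Of 35 genes under -1, 7 slopes were positive and 28 negative, with 1 rising and 8 falling at that threshold. Over all 14879 genes, 7601 slopes were positive and 7278 negative, with 4.07% rising and 4.58% falling at that threshold. Gsn rose by 0.40 ± 0.13 (unadjusted p = 0.0053) and Sfrp4 by 0.49 ± 0.16 (0.0064), while Mettl7a1, Hlf and Adh1 had slopes of -0.30, -0.11 and 0.00. Bmp7 fell by 0.86 ± 0.23 (0.00095), Hand2 by 0.38 ± 0.14 (0.011) and Dio2 by 0.45 ± 0.21 (0.039), all unadjusted p values of the edgeR fit. Gzmb had a slope of 0.31 ± 0.21, opposite to the first plate. All 6 mice also lay on the first plate, but WT6 only with epithelium, so its stroma had no part in choosing these genes. For the other mice these slopes are not evidence from new mice.

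**Figure D5:**
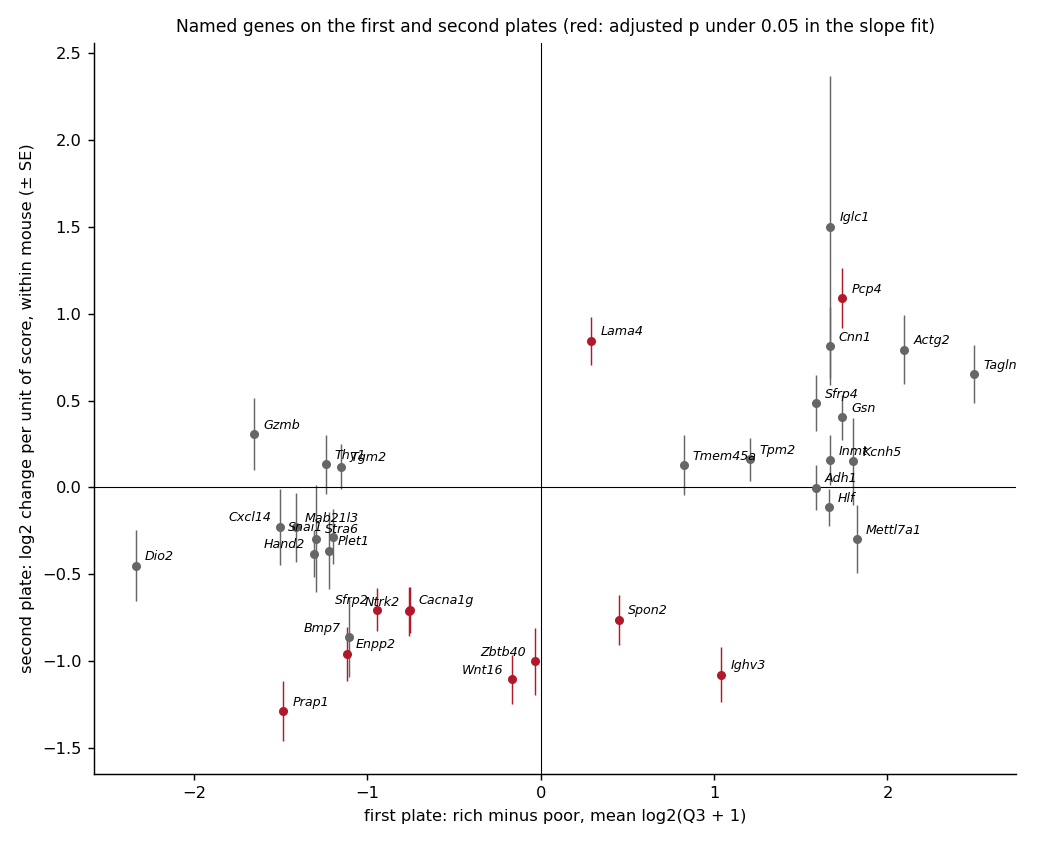
Difference in mean log2(Q3 + 1) between rich and poor first-plate regions (x axis) against the log2 slope per unit of score within mice in 14 second-plate regions (y axis, bars are SE) for the named genes. Red points had an adjusted p under 0.05. Pcp4, Cnn1, Actg2 and Tagln lie high on both axes, and Spon2 and Ighv3 lie on opposite sides.

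List medians on the second plate were small. The median slope was 0.18 for endothelial, -0.08 for mural, 0.11 for fibroblast, 0.11 for elastic fibre and 0.02 for columnar markers. At an unadjusted p under 0.05 in edgeR, 4.07% of all genes rose and 4.58% fell. At that threshold 2 mural markers had positive slopes (Notch3 0.57, Mcam 0.35) and 2 negative ones (Abcc9 -0.32, Pdgfrb -0.38). Elastic fibre genes had 3 positive and 1 negative, endothelial markers 1 and 0, and columnar markers 0 and 0. Of the smooth muscle regulators, Foxf1, a forkhead factor of visceral mesenchyme, had a slope of 0.69 and Tgfb1i1, a focal adhesion coactivator, of -0.24. Of the fibroblast markers, 3 collagen genes had positive slopes (Col1a1 0.38, Col1a2 0.27, Col3a1 0.74) and Mmp2 a negative one of -0.35. None of these genes passed the adjustment over all genes in edgeR.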

How the data were processed

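GeoMx Whole Transcriptome Atlas libraries of uterine regions were analysed. The deposited count table, made by the authors from GeoMx probe counts, has 0 replaced by 1 and 3 targets that are not whole, so its values were treated as estimated counts and rounded for tests. The deposited signal values are the authors' Q3-normalised counts for 14881 genes of 19962 targets. The negative-probe row, 5.27e-04% of the counts, stayed out of tests. The authors kept genes detected above a limit set from negative probes in a minimum share of regions. The labels name build mm10, and the deposited files per region were not used here. The labels name 14 animals and the design text 13, and the 14 were used, with ages read as months.

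The members and gene lists were chosen with earlier results of these data known. Levels are log2(Q3 + 1), and TMM-scaled log2 CPM and negative-probe subtraction were alternatives. Genotype was tested on counts summed per mouse, with 11 residual degrees of freedom, and the slope on the score over second-plate regions with the mouse as a block, with 7, both by edgeR 4.0.16 (quasi-likelihood, TMM, two-sided, Benjamini-Hochberg over all genes, threshold 0.05) in R 4.3.3. DESeq2 1.42.0 and limma 3.58.1 were alternatives. The edgeR fits were also run on simulated counts with the same dispersion for every gene and no differences between mice, which is simpler than these data. DESeq2 gave no adjusted p for 26 genes between genotypes. Named genes were Acta2, Myh11, list members, the 12 largest differences each way with 1 sign within both genotypes and in the mean over PV1 and WT5, the 8 genes most correlated with the score, and the 3 called genes of lowest p each way in each fit. Replicates are mice in the genotype test. Regions of a mouse share their source, no 2 first-plate stroma regions were copies (highest correlation 0.950), and p-values measure the spread between these mice for genotype and between regions within mice for the slope. Alternatives added after seeing the data were 1 weight per mouse and class, no region under 200000 counts, genes at least 2 times the negative probes, and the slope within mice.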

Additional observations from a re-analysis of the deposited data

How the results depend on the processing

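The contractile median was 0.19 to 0.40 under the alternatives run, and the 24 named differences kept their sign apart from Snai1, which was 0.038 from the slope within mice. The counts of genes over 1 and under -1 (114 and 35) moved widely. They were 45 over 1 with TMM, 429 and 154 with the negative-probe level subtracted, 291 and 73 with 9 regions per class, 45 and 13 with 17, 72 over 1 with a score from Acta2 alone, 184 and 23 from Myh11 alone, 400 and 175 in PV only, 354 and 82 in WT only, 313 and 61 as the mean over PV1 and WT5, 183 over 1 with a pseudocount of 0.5, 21 under -1 with each mouse counted once per class, and 203 and 148 from the slope within mice. They were 2186 and 361 past 0.5, and 4 and 2 past 2. Leaving out each mouse gave 105 to 240 and 19 to 66, with 240 and 66 without PV1, 184 and 19 without PV5, 210 and 57 without WT7, 181 over 1 without WT5, and 55 under -1 without PV4 and without WT4. Genotype calls were 0 higher and 0 to 1 lower (1 without PV4) without each mouse, 2 lower with DESeq2 and 1 lower with limma. Slope calls (2 rising, 9 falling) were 0 and 2 with DESeq2 and with limma, 398 and 284 with no mouse block, 1072 and 1469 with every second-plate region titled stroma, 3 falling with Myh11 alone, and 1 to 2 and 3 to 12 without each mouse. With every such region the slopes of Ighv3, Enpp2, Cacna1g and Spon2 turned to 0.10, 0.15, 0.26 and 0.23. Without each mouse the slope of Prap1 was -1.40 to 0.61 and that of Ighv3 -1.21 to 0.58, the positive values without WT6. The cause of these changes was not tested. Dim genes such as Cnn1 are limited by the negative-probe level,.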
